A study of Homo sapiens with 8 samples.

Results

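The genes examined are the receptors through which lipocalin-2 can enter cells and their close partners: the lipocalin-2 receptor SLC22A17, megalin (LRP2), cubilin (CUBN), amnionless (AMN), the LRP family member LRP1, the receptor chaperone LRPAP1 and the adaptor DAB2. They were found by gene symbol. No cutoff on measured values was used to choose them, but they were chosen by hand with earlier results of these data known. Of these 7 genes, 5 were matched among the 16782 genes of the table and are described here, whereas LRP2 and AMN were not analysed here. All 5 passed the filter on low values, at least 1 CPM (reads scaled to a common library size) in at least 2 of the 8 samples, as did 15593 genes of the whole table. DAB2, LRPAP1, LRP1 and SLC22A17 reached 1 CPM in 8 samples and CUBN in 5, most of them controls.

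The samples were 4 samples of CAKI1 cells, an established human renal carcinoma line, given holo Lcn-2 (hLcn-2, lipocalin-2 loaded with iron) at 5 µg/mL for 24 h, and 4 unstimulated control samples of the same line. Cells of both groups had been serum starved for 24 h before stimulation. The samples are numbered 1 to 4 within each group. Since 1 line was used, the differences describe CAKI1 cells, and since the labels do not say that the samples were separate cultures, p-values measure only the spread between these samples, which may be technical.

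Lipocalin-2 is a small secreted protein that carries iron bound to a siderophore. SLC22A17, a member of the organic ion transporter family without a known transport substrate, and megalin, a giant endocytic receptor of the proximal tubule, are the receptors best known to take it up. Megalin works together with cubilin, which has no membrane-spanning part of its own and is held at the surface by amnionless. LRPAP1 escorts megalin, LRP1 and other LRP family receptors through the endoplasmic reticulum and keeps ligands from binding early, and DAB2 ties short motifs in the receptor tails to clathrin and its adaptor AP-2.

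The libraries read the 3′ end of each transcript (QuantSeq) and carried unique molecular identifiers, so that 1 read stands for 1 cDNA molecule and levels need no correction for transcript length. The libraries held between 1501563 and 13953090 reads, and 3 reads were worth 0.211 CPM in the deepest (control 1) and 1.98 CPM in the shallowest (control 4). The share of the mitochondrial ribosomal gene RNR2 was highest among the replicate 3 libraries, 6.22% for the control and 7.10% for hLcn-2, and lay between 3.31% and 4.37% elsewhere. Of 8 markers of renal carcinoma epithelium 7 were analysed, with a summed level of 1867 to 2442 CPM in controls and 2021 to 2571 CPM with hLcn-2, and 0 of them were called in limma. Most of this sum came from VIM, which averaged 1769 CPM over the 8 samples, whereas KRT8 averaged 31.2 CPM and PAX2 2.75 CPM. PAX8, a renal lineage factor, had 226 ± 22.4 (SD, n = 4) CPM in controls and 223 ± 18.3 (SD, n = 4) with hLcn-2. The cadherin CDH6 was lower and the intermediate filament gene VIM higher in 4 of 4 pairs (adjusted p = 0.158 and 0.348 with the replicate number as a block in limma), directions shared by 10.9% and 9.93% of all genes tested, and the part of these differences in the results below was not tested. Of 9 markers of blood, endothelial and stromal cells 1, PDGFRB, was analysed, and it lay between 0 and 1.06 CPM in controls and between 0 and 1.83 CPM after hLcn-2. In bulk RNA, fewer cells of a type and less RNA per cell cannot be told apart.

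The levels in CAKI1 cells fell from the adaptor and the chaperone to LRP1, at the middle of all genes tested, and on to SLC22A17 and CUBN. DAB2 averaged 374 CPM over the 8 samples, a level above that of 97.6% of the genes tested. LRPAP1 averaged 62.5 CPM (above 77.6%), LRP1 15.1 CPM (above 49.5%), SLC22A17 4.47 CPM (above 30.01%) and CUBN 1.26 CPM (above 11.5%). DAB2 was thus 5.98 times as high as LRPAP1, LRPAP1 4.15 times as high as LRP1, and LRP1 3.37 times as high as SLC22A17. In each of these neighbouring pairs of genes, the lowest of the 8 values of the higher gene lay above the highest value of the lower gene. The levels of SLC22A17 and CUBN overlapped, although SLC22A17 was the higher of the pair in 7 of 8 samples.

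**Figure D1:**
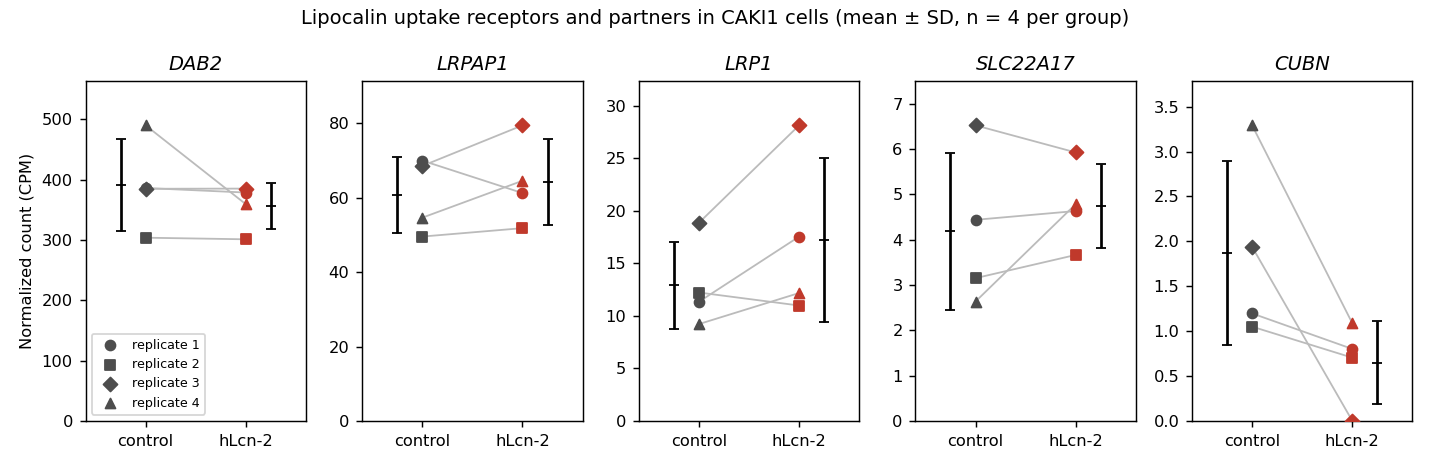
Normalized counts (CPM, linear axes from 0) of DAB2, LRPAP1, LRP1, SLC22A17 and CUBN in each of the 4 control and 4 hLcn-2 samples, with lines joining samples of the same replicate number and bars giving the mean ± SD of each group. The groups overlap for every gene, the replicate 3 samples are the highest of their group for LRP1 and SLC22A17, and CUBN is lower after hLcn-2 in each of the 4 pairs.

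Among the 5 genes, 0 had an adjusted p-value under 0.05 between hLcn-2-treated and control cells (limma, Benjamini-Hochberg adjustment over all genes tested), as did 0% of all genes tested. At an unadjusted p-value under 0.05 there was 1 gene, CUBN, in limma (2.28% of all genes tested), 0 in edgeR (2.08%) and 0 in DESeq2 (1.82%). CUBN passed the filter through the controls, the group in which it was higher, which limits what its p-values here can show. Of the 5 log2 fold changes, 3 were above 0 and 2 below, with a median of 0.080 beside 8.3e-04 for all genes tested. For none of the 5 were the values of the groups separate, which was the case for 1.88% of all genes tested. Because deviations from the group means were shared by same-numbered samples (correlation across genes 0.31 to 0.61), a second fit took the replicate number as a block. With the block, 0 of the 5 genes were called in limma (background 0.282%), in edgeR (1.49%) or in DESeq2 (1.11%). The unadjusted p-value was then under 0.05 for 1 gene, CUBN, in limma (12.2% of all genes tested) for 1 gene, LRP1, in edgeR (13.4%) and for 0 in DESeq2 (7.38%).

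SLC22A17 (ENSG00000092096) is encoded on the minus strand of chromosome 14 between 23346314 and 23352912 (GRCh38), and no exon of another annotated gene overlaps the 10 exons of its canonical transcript. Its normalized counts were 4.44, 3.15, 6.52 and 2.63 CPM in controls 1 to 4 and 4.63, 3.66, 5.92 and 4.78 CPM in hLcn-2 samples 1 to 4. The hLcn-2 samples lay within the range of the controls, and the highest sample of each group was replicate 3. The group means were 4.19 ± 1.73 (SD, n = 4) and 4.75 ± 0.927 (SD, n = 4) CPM, a log2 fold change of 0.19 (standard error, SE, 0.27, adjusted p = 1.0 in limma). The two-sided exact permutation test over the 70 regroupings gave p = 0.486, where the smallest p that 4 samples against 4 allow is 0.0286. Here and below, these regroupings took no account of the replicate numbers. The 95% confidence interval of the difference spans a 0.757-fold to a 1.73-fold value of CPM + 1, which at this level understates the fold of CPM itself. The estimate on the log2 scale was 0.24 at a pseudocount of 0.1 and 0.10 at 5, and 0.041 without control 4 and 0.39 without control 3. Between 4 and 63 reads per sample stood behind the values, with the fewest in control 4.

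By level SLC22A17 was number 5 of 10 analysed genes of the SLC22 family, after SLC22A18 (51.0 CPM over 8 samples), SLC22A5 (27.5 CPM), SLC22A23 (9.15 CPM) and SLC22A15 (5.18 CPM). Its range overlapped those of its neighbours in this order, SLC22A15 and SLC22A4. Of the other 9 genes, 0 were called in limma. An unadjusted p-value under 0.05 was seen for 1 with or without the block, beside 2.28% of all genes tested without and 12.2% with it. Of their log2 fold changes 4 were above 0 and 5 below, with a median of -0.059 beside 8.3e-04 for all genes tested. SLC22A4, a carnitine and ergothioneine transporter with the smallest p-value of the family, had 3.16 ± 1.77 (SD, n = 4) CPM in controls and 5.49 ± 1.12 (SD, n = 4) with hLcn-2 (log2 fold change 0.72, SE 0.31, adjusted p = 1.0 in limma), from as few as 2 reads in a sample. Its log2 fold change was 0.48 without control 4, 0.39 without pair 4 and 0.38 at a pseudocount of 5. SLC22A5, the carnitine transporter, showed a log2 fold change of 0.12 (SE 0.18) and SLC22A18 one of 0.17 (SE 0.16).

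CUBN (ENSG00000107611), which binds many filtered proteins together with megalin, is encoded on the minus strand of chromosome 10 between 16823966 and 17129811. It had the largest difference of the 5 genes and the fewest reads. Its normalized counts were 1.20, 1.05, 1.94 and 3.29 CPM in controls 1 to 4 and 0.802, 0.704, 0 and 1.09 CPM in hLcn-2 samples 1 to 4. Only hLcn-2 sample 4 reached into the range of the controls, just above control 2. The 5 samples with at least 1 CPM were the controls and hLcn-2 sample 4. CUBN thus passed the filter through the group in which it was higher, which limits what its p-values can show. The log2 fold change was -0.79 (SE 0.32, unadjusted p = 0.0297, adjusted p = 1.0 in limma). With the replicate block the adjusted p-value was 0.282 (unadjusted p = 0.0154, limma), and the exact permutation test gave p = 0.0571.

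The values of CUBN rested on 17, 14, 11 and 5 reads in controls 1 to 4 and on 9, 5, 0 and 5 reads in the hLcn-2 samples. The highest value, that of control 4, came from 5 reads in the shallowest library, with a 95% Poisson interval of 1.07 to 7.68 CPM. For the count of 0 in hLcn-2 sample 3 the same two-sided interval reaches up to 1.82 CPM, and 3 reads were worth 1.48 CPM there. Summed over libraries, 47 reads in controls and 19 after hLcn-2 correspond to 1.39 and 0.759 CPM of all reads, a ratio of 0.548 with an exact interval of 0.303 to 0.951 that covers counting error only. Within the numbered pairs the log2 differences of CUBN were -0.29, -0.27, -1.56 and -1.0402, lower in 4 of 4 pairs like 10.9% of all genes tested. The size of the difference depended on the pseudocount, with log2 fold changes of -1.73 at a pseudocount of 0.1 and -0.27 at 5, and it was -0.57 without control 4 and -0.56 without hLcn-2 sample 3.

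LRP1 (ENSG00000123384), an endocytic receptor for protease complexes, lipoproteins and heme-bound hemopexin, lies on the plus strand of chromosome 12 from 57128483 to 57213361. Genes on the opposite strand, STAT6 and LRP1-AS, overlap some of its 89 exons but not the last one, from 57212415 to 57213361. Its normalized counts were 11.3, 12.2, 18.9 and 9.22 CPM in controls 1 to 4 and 17.5, 10.99, 28.1 and 12.2 CPM in hLcn-2 samples 1 to 4. Replicate 3 was the highest sample of each group, and 3 of the 4 hLcn-2 samples lay within the range of the controls. The log2 fold change was 0.34 (SE 0.30, adjusted p = 1.0 in limma, exact permutation test p = 0.457), with differences of 0.59, -0.14, 0.55 and 0.37 in pairs 1 to 4. The SD between the means of the pairs was 0.47 and that between the differences within pairs 0.34 on the log2 scale.

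With the replicate block the 95% confidence interval of LRP1 ran from -0.0059 to 0.69 (adjusted p = 0.424, limma), and the unadjusted p-value was 0.0534 in limma, 0.0310 in edgeR and 0.0959 in DESeq2. The log2 fold change was 0.085 without hLcn-2 sample 3 and 0.53 without control 3. Both of these samples had the high RNR2 shares given above, whose part in the levels of LRP1 was not tested. From 14 to 197 reads per sample stood behind LRP1.

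LRPAP1 (ENSG00000163956), the chaperone, is encoded on the minus strand of chromosome 4 between 3503612 and 3532446. Its normalized counts were 70.01, 49.6, 68.6 and 54.7 CPM in controls 1 to 4 and 61.3, 51.8, 79.5 and 64.6 CPM in hLcn-2 samples 1 to 4. The groups overlapped over most of their ranges, and replicate 2 was the lowest sample of each group. The log2 fold change was 0.080 (SE 0.17, adjusted p = 1.0 in limma, exact permutation test p = 0.657), and its 95% confidence interval spans a 0.817-fold to a 1.37-fold value of CPM + 1. Its sign turned without control 2 (-0.010) and without hLcn-2 sample 3 (-0.026). In single samples LRPAP1 was between 2.82 and 6.17 times as high as LRP1, the receptor it escorts.

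DAB2 (ENSG00000153071), the clathrin adaptor for megalin and related receptors, is encoded on the minus strand of chromosome 5 between 39371675 and 39462300. Another annotated gene on the same strand, ENSG00000289699, overlaps exons of the canonical transcript of DAB2, though not the last one. Its normalized counts were 386, 304, 385 and 489.9 CPM in controls 1 to 4 and 379, 301, 385 and 359 CPM in hLcn-2 samples 1 to 4. In pairs 1 to 3 the values differed by at most 0.028 on the log2 scale, and in pair 4 DAB2 was lower after hLcn-2 by 0.45. The log2 fold change was -0.12 (SE 0.16, adjusted p = 1.0 in limma, exact permutation test p = 0.343) and -0.0067 without control 4, the shallowest library, in which 744 reads of DAB2 were counted. The coefficient of variation of DAB2 over the 8 samples was 15.8%, close to the 16.3% of LRPAP1, against 78.1% for CUBN with its few reads. The 95% confidence interval of the difference of DAB2 spans a 0.726-fold to a 1.16-fold value of CPM + 1.

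**Figure D2:**
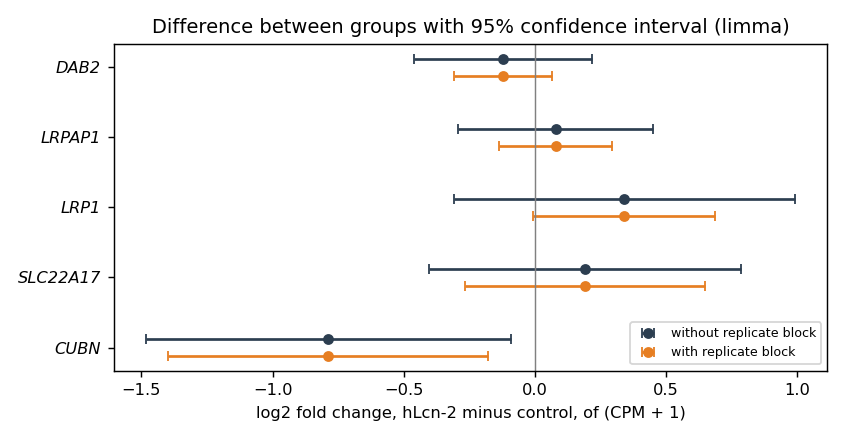
Log2 fold changes between hLcn-2 and control samples of (CPM + 1) for the 5 genes, as points with 95% confidence intervals from limma without and with the replicate block (n = 4 per group). The intervals of DAB2, LRPAP1, LRP1 and SLC22A17 include 0 in both fits, and that of CUBN lies below 0 before adjustment over the 15593 genes tested. CUBN passed the filter on low values through the controls, which limits what its interval can show.

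Of 10 other members of the LRP family of endocytic receptors, 7 were more abundant than LRP1 and 3 less. LRP10 was the highest of these with 172 CPM over the 8 samples. LRP1 was number 8 of these 11 genes by level, with a range of 9.22 to 28.1 CPM that overlapped those of its neighbours SORL1 (29.6 CPM on average) and LRP1B (5.48 CPM). LRP4 and LRP5, the latter a Wnt co-receptor, were the lowest with 3.30 and 2.99 CPM.

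**Figure D3:**
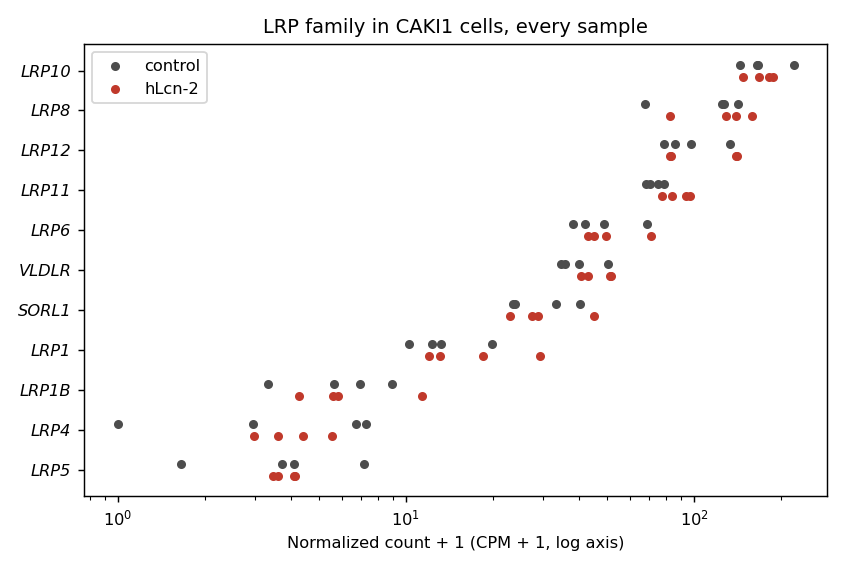
Normalized counts plus 1 (log axis) of 11 LRP family members in each of the 4 control and 4 hLcn-2 samples, ordered by mean level. Each gene overlaps in range with the next in the order, and LRP1 is number 8 of 11 with values between 9.22 and 28.1 CPM.

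Of the 10 family members other than LRP1, 0 were called in limma with or without the block. An unadjusted p-value under 0.05 was seen for 0 without and 1 with the block, beside 2.28% and 12.2% of all genes tested. Their log2 fold changes were above 0 for 9 and below 0 for 1, with a median of 0.13, beside 50.2% above 0 and a median of 8.3e-04 among all genes tested. The number above 0 was 8 after each column was rescaled to a common sum, with a median of 0.10, 7 in edgeR and DESeq2, and 6 without hLcn-2 sample 3.

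LRP11, a little-studied relative with the smallest p-value of the family without the block, had 72.1 ± 4.75 (SD, n = 4) CPM in controls and 86.9 ± 8.77 (SD, n = 4) with hLcn-2. Its log2 fold change was 0.26 (SE 0.13, adjusted p = 1.0 in unblocked and 0.234 in blocked limma), and another annotated gene on the same strand overlaps its last exon. LRP10 showed a log2 fold change of -0.017 (SE 0.15).

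Among 13 analysed chaperones, adaptors and regulators of the family, 0 were called in limma (unadjusted p-value under 0.05 for 0 without and 4 with the block, beside 2.28% and 12.2% of all genes tested), with 6 log2 fold changes above 0, 7 below and a median of -0.068. HSP90B1, an endoplasmic reticulum chaperone, and MYO6, a myosin that moves endocytic vesicles, were the most abundant and had log2 fold changes of 0.20 (SE 0.17) and -0.14 (SE 0.15). SHC1, a signalling adaptor that binds the tail of LRP1, had 17.5 ± 4.14 (SD, n = 4) CPM in controls and 25.1 ± 7.17 (SD, n = 4) with hLcn-2 (log2 fold change 0.49, adjusted p = 1.0 in unblocked and 0.282 in blocked limma). Without hLcn-2 sample 1 the log2 fold change of SHC1 was 0.31, and without pair 1 it was 0.27.

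The clathrin coat genes showed differences in either direction. Of 27 genes, 0 were called in limma (unadjusted p-value under 0.05 for 1 without and 4 with the block, beside 2.28% and 12.2% of all genes tested), 12 had a log2 fold change above 0 and 15 below, and the median was -0.0013. CLTA, a clathrin light chain, had 421, 334, 363 and 435 CPM in controls 1 to 4 and 355, 284, 302 and 323 CPM in hLcn-2 samples 1 to 4. The log2 differences within pairs lay between -0.43 and -0.23, and hLcn-2 sample 1 reached above control 2. For its log2 fold change of -0.29 (SE 0.13), the adjusted p-value was 1.0 in unblocked and 0.119 in blocked limma. CLTC, the heavy chain, had 962 ± 132 (SD, n = 4) CPM in controls and 983 ± 159 (SD, n = 4) with hLcn-2.

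Of 19 genes of early and recycling endosomes, 0 were called in limma (unadjusted p-value under 0.05 for 0 without and 1 with the block, beside 2.28% and 12.2% of all genes tested). Of their log2 fold changes 9 were above 0 and 10 below, with a median of -0.040. RAB7A, which acts at late endosomes, and EEA1, an early endosome tether, were the most abundant, with log2 fold changes of -0.10 (SE 0.12) and 0.015 (SE 0.13). EHD1, which drives recycling to the surface, had one of -0.26 (SE 0.18, adjusted p = 1.0 in unblocked and 0.274 in blocked limma) and was lower in 4 of 4 pairs, like 10.9% of all genes tested. Without hLcn-2 sample 3 its log2 fold change was -0.12, and without control 1 it was -0.17.

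Receptors of the LRP family are cut by sheddases and then, within the membrane, by the gamma-secretase complex. Among 10 such proteases and subunits, limma called 0 without the block and 1, NCSTN, with it, where 0.282% of all genes tested were called. An unadjusted p-value under 0.05 was seen for 1 without and 3 with the block, beside 2.28% and 12.2% of all genes tested. Their log2 fold changes were above 0 for 8 and below 0 for 2, with a median of 0.081, beside 50.2% above 0 among all genes tested. NCSTN encodes nicastrin, the substrate-binding subunit of gamma-secretase. It had 29.8, 28.3, 19.9 and 10.5 CPM in controls 1 to 4 and 53.3, 37.3, 35.1 and 20.7 CPM in hLcn-2 samples 1 to 4. The groups overlapped, but NCSTN was higher with hLcn-2 in 4 of 4 pairs, as 9.93% of all genes tested were, with log2 differences of 0.39 to 0.91. Its log2 fold change was 0.73 (SE 0.33, adjusted p = 1.0 in unblocked limma), and with the block the SE was 0.12 and the adjusted p-value 0.0373 in limma and 0.00745 in edgeR. Leaving out single samples gave log2 fold changes of 0.42 without control 4, 0.52 without hLcn-2 sample 1 and 0.97 without hLcn-2 sample 4. With the block, the adjusted p-value in limma was 0.121 without pair 1, 0.0853 without pair 2, 0.146 without pair 3 and 0.0497 without pair 4. COPA on the opposite strand overlaps exons of NCSTN, though not the last one, the sources used here do not state whether reads were counted by strand, and as few as 16 reads stood behind a sample.

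APH1A, another subunit, had 331, 298, 556 and 304 CPM in controls 1 to 4 and 454, 461, 556 and 395 CPM in hLcn-2 samples 1 to 4. Replicate 3 was nearly equal between the groups, and in the other 3 pairs the hLcn-2 sample was higher. The log2 fold change was 0.36 (SE 0.20). Under the block, the adjusted p-value was 0.132 in limma and 0.0375 in edgeR. The difference on the log2 scale was 0.57 without control 3, the control that stood apart. The sheddase ADAM10 showed a log2 fold change of 0.037 (SE 0.13).

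Among 14 analysed ligands of LRP1 or megalin, 0 were called in limma with or without the block. An unadjusted p-value under 0.05 was seen for 0 without and 2 with the block, beside 2.28% and 12.2% of all genes tested. Of their log2 fold changes 6 were above 0 and 8 below, with a median of -0.041. TFPI, an inhibitor of tissue factor, showed a log2 fold change of 0.19 (SE 0.13), and CCN2, a matricellular growth factor, one of -0.40 (SE 0.23) with adjusted p-values of 0.299 and 0.364 with the block in limma. The value of TFPI was 0.12 without control 4, and that of CCN2 was -0.24 without hLcn-2 sample 3.

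Of 5 other receptors for protein-bound iron 3 were analysed, and 0 were called in limma. An unadjusted p-value under 0.05 was seen for 0 with or without the block, beside 2.28% of all genes tested without and 12.2% with it. TFRC, the transferrin receptor, had 367 ± 32.7 (SD, n = 4) CPM in controls and 362 ± 46.3 (SD, n = 4) with hLcn-2, a log2 fold change of -0.027 (SE 0.13). CD44, a hyaluronan receptor to which iron endocytosis has been ascribed, had 525 ± 98.6 (SD, n = 4) and 524 ± 136 (SD, n = 4) CPM. Both differences were smaller than the spread between replicates. TFR2 lay near 1 CPM, with 1.32 ± 0.936 (SD, n = 4) in controls and 1.45 ± 0.383 (SD, n = 4) with hLcn-2.

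Over the 105 analysed genes of these lists, 0 were called without the block in limma, edgeR or DESeq2. An unadjusted p-value under 0.05 was seen for 3 in limma, 3 in edgeR and 1 in DESeq2, beside 2.28%, 2.08% and 1.82% of all genes tested. With the block, limma called 1 (NCSTN), and edgeR and DESeq2 called 2 each, the same genes, NCSTN and APH1A, both higher after hLcn-2. The background with the block was 0.282% of all genes tested in limma, 1.49% in edgeR and 1.11% in DESeq2.

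**Figure D4:**
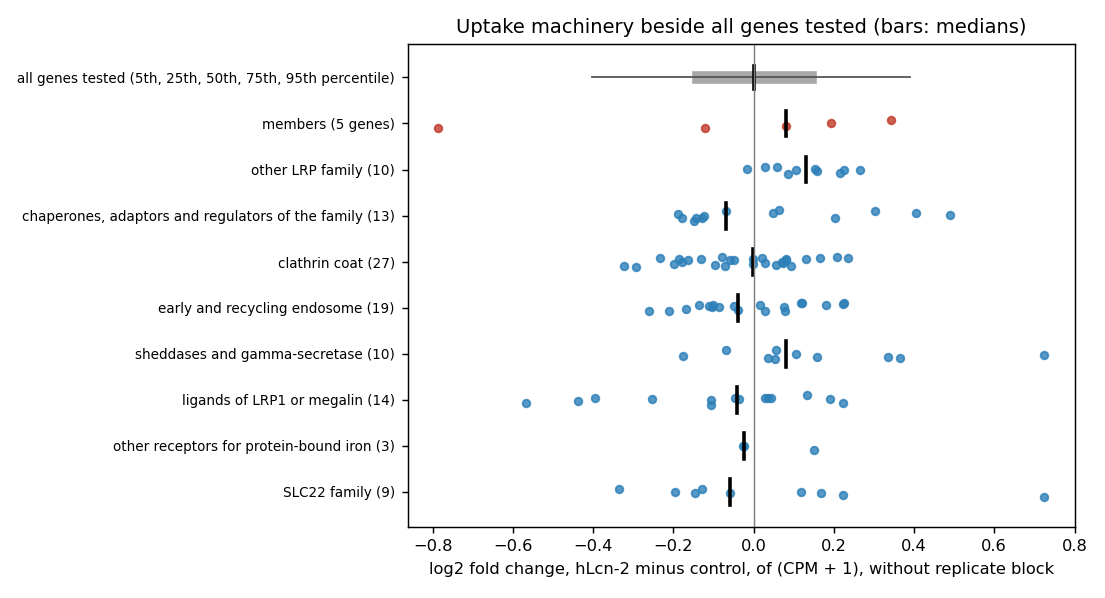
Log2 fold changes between hLcn-2 and control samples of (CPM + 1) without the replicate block, as 1 point per gene with the median of each list as a bar, beside the percentiles of all 15593 genes tested. The lists scatter around 0, with 9 of 10 other LRP family genes above 0, and CUBN at -0.79 and NCSTN at 0.73 lie outermost in their rows.

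The genes whose levels were most like those of DAB2, LRPAP1 and LRP1 over the 8 samples were sought among 9016 other genes with a mean of at least 10 CPM. For DAB2 they were AK3 (Pearson's r = 0.98), DHRS1 (0.96) and ATP5E (0.96). For LRPAP1 they were GTDC1 (0.97), UBAC2 (0.96) and RHBDF1 (0.95), and for LRP1 they were PLA2G15 (0.97), ABI2 (0.96) and NDUFA4 (0.96). These values describe 8 libraries that share replicate numbers and differ in depth, and with so many genes compared, values of this size are not a result about these genes.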

How the data were processed

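Gene expression was measured in CAKI1 cells, in 4 control and 4 hLcn-2 samples. The authors aligned single-end reads of 75 cycles to GRCh38 with STAR, collapsed them by UMI, counted them with HTSeq and deposited normalized counts, a signal scaled to CPM of an adjusted library size. Versions of these tools are not given in the sources used here. Each value was a whole multiple of the worth of 1 read (tolerance 0.001 reads, 134256 of 134256 values), and whole reads were recovered from it. The number of reads limits the precision, and intervals cover counting error only. One cell with a decimal comma was read as a decimal point.

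Limma 3.58.1 (R 4.3.3, two-sided, with an intensity trend) was run on log2(CPM + 1), which understates the change of genes with few reads. Benjamini-Hochberg adjustment ran over all genes tested. edgeR 4.0.16 (quasi-likelihood) and DESeq2 1.42.0 were run on the recovered reads and called 0 genes without the replicate block and 233 and 173 with it. Numbers in the sample titles pair the samples, and same-numbered samples correlated by 0.31 to 0.61 (mean 0.50) in their deviations from the group means. Other alternatives were pseudocounts, filters, scalings, no trend and leaving out samples or pairs. The models were tested on simulated data. Gene positions and overlaps are from GENCODE 44.

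The genes and lists were chosen by hand with earlier results of these data known. Named are the 7 genes of the rule. From each list, the genes called with or without the block, the 2 of highest level and that of smallest unblocked p-value were named. CDH6, VIM, KRT8, PAX2, SLC22A15, SLC22A23, LRP1B, LRP4, LRP5, MYLIP and SORL1 were named after their values were seen. Some genes of the lists are not reported here and were not replaced, and list counts leave them out.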

Additional observations from a re-analysis of the deposited data

Results flagged for a closer look

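Among the 5 genes and list genes named by rule, 52 groups of 4 samples were examined for a sample far from the other 3. Such a sample was found in 4 groups, where 2.6 are expected by chance. The markers and the genes named after their values were seen were not examined. None belonged to SLC22A17, CUBN, LRP1, LRPAP1 or DAB2. SHC1 had 35.7 CPM in hLcn-2 sample 1, above the other hLcn-2 samples (next 23.2 CPM). EEA1 had 291.7 CPM in control 4, below the other controls (next 359.7 CPM). APH1A had 556 CPM in control 3, above the other controls (next 331 CPM). CD44 had 378 CPM in control 3, below the other controls (next 566 CPM).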

How the results depend on the processing

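LRP1 and SLC22A17 stayed above 0 and CUBN and DAB2 below 0 under every alternative that gave a value, and 0 of the 5 genes were called under any. With samples or pairs left out, the log2 fold changes ranged from 0.085 to 0.53 for LRP1, 0.033 to 0.39 for SLC22A17, -0.96 to -0.53 for CUBN, -0.24 to -0.0067 for DAB2 and -0.026 to 0.18 for LRPAP1. The filter on a mean of 10 CPM removed CUBN and SLC22A17, and DESeq2 with the block gave neither an adjusted p-value. The number of genes called, 0 without the replicate block, was 44 with it in limma, 233 in edgeR and 173 in DESeq2, and with the block in limma 14, 3, 0 and 58 without pairs 1 to 4. Of the list genes, 1 was called with the block in limma, 2 in edgeR and 2 in DESeq2, and with the block in limma 0, 0, 0 and 1 without pairs 1 to 4. Leaving out single samples without the block called 0 genes. The block changed no other call among the genes named, and the cause of these differences was not tested. Signs turned for CLTC (-0.0040) and EEA1 (-0.016) with columns rescaled to a common sum, for CD44 (0.0072) in edgeR and for TFR2 (-0.0023) in edgeR with the block. With single samples left out, the log2 fold changes ran from -0.024 to 0.087 for ADAM10, from -0.17 to 0.18 for CD44, from -0.054 to 0.13 for CLTC, from -0.064 to 0.062 for EEA1, from -0.10 to 0.10 for LRP10, from -0.026 to 0.18 for LRPAP1, from -0.021 to 0.38 for TFR2 and from -0.095 to 0.057 for TFRC, each crossing 0. With the block and a pair left out, the sign turned for ADAM10 (-0.028 without pair 1), CD44 (0.034 without pair 3), CLTC (-0.065 and -0.022 without pairs 1 and 2), EEA1 (-0.0064 and -0.043 without pairs 3 and 4), LRP10 (0.058 without pair 3) and TFRC (0.035 without pair 4). Of the 5 genes, CUBN had the fewest reads, at most 17 in a sample.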

Other observations

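Cubilin and megalin are genes of the proximal tubule. Of 16 other genes of this segment 7 were analysed, and 0 were called in limma, with an unadjusted p-value under 0.05 for 0 without and 2 with the replicate block, beside 2.28% and 12.2% of all genes tested. Their log2 fold changes were above 0 for 2 and below 0 for 5, with a median of -0.23, beside 50.2% above 0 among all genes tested. SLC4A4, the sodium bicarbonate cotransporter, had 158 ± 57.5 (SD, n = 4) CPM in controls and 134 ± 46.7 (SD, n = 4) with hLcn-2, lower in 4 of 4 pairs like 10.9% of all genes tested (adjusted p = 0.268 with the block in limma). ANPEP, a brush border peptidase, had 79.0 ± 33.1 (SD, n = 4) and 63.5 ± 30.8 (SD, n = 4) CPM, lower in 4 of 4 pairs (adjusted p = 0.224 with the block in limma). Without the block the unadjusted p-values of SLC4A4 and ANPEP were 0.404 and 0.373 (limma). The 2 genes above 0 were GGT1 (log2 fold change 0.21, SE 0.33) and PDZK1 (0.12, SE 0.28). GGT1 averaged only 1.41 CPM and PDZK1 13.0 CPM. These genes were named after their values were seen.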
